A study of Mus musculus with 2 samples.

Results

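Cathepsins, the proteases of the lysosome, and cystatins, the small proteins that inhibit many of them, were followed through single-cell transcriptomes of mouse microglia. The set held 10 genes of the 31053 in the feature table, matched by symbol: the proteases Ctsb, Ctsc, Ctsd, Ctsh, Ctsl, Ctss and Ctsz, and the inhibitors Cst3, Cst7 and Cstb. Cells of 2 libraries were used, one from wild-type (WT) mice and one labelled IRF8KO, for mice without the transcription factor IRF8. Both groups were C57BL/6 females aged 3 months with no treatment given, and each library was made from sorted microglia of 3 pooled mice. The labels name no allele for IRF8KO, and for the sample with that title the genotype entry says WT, so it is the library labelled IRF8KO here and its cells are called IRF8KO cells after that title. With 1 library per group, a difference between the libraries has no replicate check, no test of genotype was possible, and all intervals below are 95% intervals that cover counting error only.

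Cathepsins are made as inactive precursors and act in the acidic interior of endosomes and lysosomes, where they digest proteins and trim antigens. Most belong to the cysteine protease family, which cystatins block by filling the active site; Ctsd is an aspartic protease that cystatins do not inhibit. Cst3 (cystatin C) is secreted and inhibits broadly, Cst7 (cystatin F) is made mainly by immune cells and is delivered to the endosomal and lysosomal system, and Cstb (stefin B) stays in the cytosol. Microglia, the macrophages of the brain, are known for strong expression of Cst3, Ctsd and Ctss, and Cst7 is known as a gene of disease-associated microglia.

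Cells entered with at least 1000 UMIs (molecular tags that count each captured transcript once, whatever its length), at least 500 genes, at most 10% mitochondrial UMIs and under 2% of UMIs in Camp, Ngp, S100a8, S100a9, Lcn2 and Ltf, which are neutrophil genes. These rules kept 3304 of 3504 WT barcodes with 18543061 UMIs and 5007 of 5303 IRF8KO barcodes with 18980263 UMIs. The depth of the median cell was 3204.5 UMIs (WT) and 2933 UMIs (IRF8KO), and 5 barcodes occurred in both libraries. The neutrophil limit left out 98 IRF8KO cells and no WT cell; the highest kept IRF8KO cell was at 0.232% and the lowest cell left out at 2.36%. Levels are given as CPM, the UMIs of a gene over all UMIs of the library on the usual counts-per-million scale. Irf8 itself stood at 794 CPM (WT) and 669 CPM (IRF8KO), which does not check the label, since tags outside a deleted stretch would still be counted. All 10 microglia markers had UMIs in both libraries, but Sall1 was at 510.6 and 2.85 CPM, and 9 border macrophage markers summed to 14.1 CPM (WT, 5 of them at 0) and 2852 CPM (IRF8KO, none at 0). The IRF8KO sum came mostly from Pf4 (1462 CPM), Ms4a7 (649 CPM) and Mrc1 (503 CPM). Lyve1 had only 2 IRF8KO UMIs, and Folr2 went the other way, with 32 UMIs in WT and 4 in IRF8KO cells. Ms4a7 stood at 258 to 898 CPM in every IRF8KO cluster described below except that led by Sall1, where it had no UMI. These are means over clusters and do not show how Ms4a7 was spread over cells. The part of cell type in the differences below was not tested. Apoe took 0.0478% of UMIs in WT and 8.83% in IRF8KO cells, and ribosomal protein genes 6.94% and 14.2%, and mitochondrial genes 2.17% and 3.93%, a measure of RNA and cell quality whose part in the differences was not tested; totals without such genes are among the alternatives tried.

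Start-site windows of GRCm38.p6 from RefSeq were found for 7 of the 10 genes. They were searched on both strands, over the 250 bases before the start, for CACGTG, the E-box within the element through which lysosomal genes are known to be regulated, and for GAAA, any 2 bases and GAAA, the core of the element bound by interferon regulatory factors. Ctsd held CACGTG at 2 places and Ctsl at 1 (the Ctsl window and most of the Ctsd window, with its proximal E-box, lie inside the genes as GENCODE places their starts), against 6.02% of 32851 windows of all genes with a match. The longer TCACGTG was found in Ctsd only, against 3.13% of all windows, and it overlaps the E-boxes. Ctss held the interferon regulatory factor core, as 2.98% of all windows did. No window of the 7 held GGAA, any 2 bases and GAAA, a composite site of ETS factors with IRF4 or IRF8, against 2.30% of all windows, and Ctsc alone held the PU.1-like GAGGAAGT, against 2.44%. Ctss and Cst7 are shown for one window with and one without a match, and Ctsd, the only one of the 7 cathepsins with a ratio above 0 below, by 30 bases around each E-box; capitals mark the matches, and a match is a description of letters, not evidence of binding.
Ctss, chr3:95526536-95526785, + strand: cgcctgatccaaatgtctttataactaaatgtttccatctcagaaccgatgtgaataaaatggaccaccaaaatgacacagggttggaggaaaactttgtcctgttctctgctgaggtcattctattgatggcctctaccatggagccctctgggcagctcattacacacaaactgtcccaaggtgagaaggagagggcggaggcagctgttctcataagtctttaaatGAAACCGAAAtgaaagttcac
Cst7, chr2:150570165-150570414, + strand: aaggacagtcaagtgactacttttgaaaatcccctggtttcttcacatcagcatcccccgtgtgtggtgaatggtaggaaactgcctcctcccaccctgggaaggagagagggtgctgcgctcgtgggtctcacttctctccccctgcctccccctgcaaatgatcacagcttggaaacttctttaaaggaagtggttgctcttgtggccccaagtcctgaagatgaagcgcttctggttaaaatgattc
Ctsd upstream E-box, chr7:142388048-142388077, - strand: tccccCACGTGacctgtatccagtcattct
Ctsd proximal E-box, chr7:142387908-142387937, - strand: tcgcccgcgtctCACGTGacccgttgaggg

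Summed over cells, the 10 genes made up 6.72% of all UMIs in WT and 3.47% in IRF8KO cells. The inhibitors accounted for most of that gap: they took 4.86% and 1.99% of UMIs, a log2 ratio (IRF8KO over WT) of -1.29 (-1.30 to -1.29). The 7 cathepsins together took 1.86% and 1.48%, a log2 ratio of -0.33 (-0.33 to -0.32), close to the median of -0.28 over the 8859 genes that reached 10 CPM in either library. That sum rests on Ctsd; the 6 cysteine cathepsins alone took 1.11% and 0.634%, a log2 ratio of -0.81.

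A difference of 2-fold or more was taken as a call. Of the 10 genes, Ctsh and Cst3 were called lower in the library labelled IRF8KO and Cst7 higher, against 9.28% of the 8859 genes called lower, 5.61% called higher and 14.9% called in either direction. All 10 reached 10 CPM in a library, Cst7 only through IRF8KO cells. A ratio below 0 was found for 7 of the 10 (74.9% of all genes) and above 0 for 3 (25.1% of all genes), with a median over the 10 of -0.51. Under TMM scaling (edgeR's trimmed mean of M-values) the median of all genes moved by 0.26 to -0.02 and the share of calls that were higher from 37.7% to 55.8%, while the same 3 members were called and each of the 10 kept its sign.

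**Figure D1:**
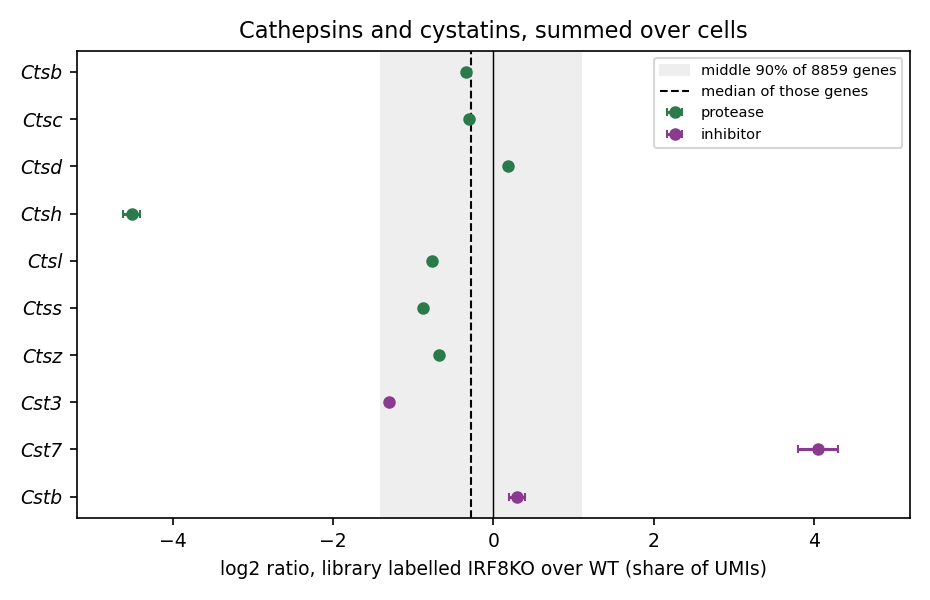
Log2 ratio of each gene's share of UMIs (x axis, library labelled IRF8KO over WT) with 95% counting intervals, proteases in green and inhibitors in purple; the grey band holds the middle 90% of 8859 genes and the dashed line is their median. Ctsh at -4.52 and Cst7 at 4.05 lie outside the band, and Cst3 at -1.30 lies near its lower edge of -1.41.

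Among the proteases, Ctsh differed most. Ctsh encodes an aminopeptidase among the cysteine cathepsins, and its gene (ENSMUSG00000032359) spans chr9:90054152-90076089 on the + strand of GRCm38 with no annotated gene overlapping it. It had 16644 UMIs in WT and 745 in IRF8KO cells, or 898 CPM (884 to 911) against 39.3 CPM. The log2 ratio of -4.52 (-4.62 to -4.41), 22.9-fold lower, placed it at the 0.79 percentile of the 8859 genes. In cells thinned to 2000 UMIs, 81.2% of 3019 WT cells and 6.96% of 4509 IRF8KO cells had a Ctsh UMI (92.0% and 11.3% without thinning).

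The cells left out by the neutrophil limit allow a check of stray RNA, but not for Ctsh. Of 97 such cells thinned alike, 23.7% had a Ctsh UMI, a larger share than in the kept IRF8KO cells, at a median depth of 7057.5 UMIs before thinning. Neutrophils are therefore no cell type without Ctsh here, and how much of the 6.96% is free RNA was not tested. In WT, 5 barcodes with over 50% haemoglobin UMIs held 1051 other UMIs, of which 9 came from the 10 genes (5 of Cst3 and 4 of Ctsb) and none from Ctsh. So few UMIs cannot show whether stray Ctsh RNA was present, and these barcodes are not from the library labelled IRF8KO.

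Ctsd was the one of the 7 cathepsins above a ratio of 0. This aspartic protease had 138723 UMIs in WT and 161293 in IRF8KO cells, or 7481 and 8498 CPM, a log2 ratio of 0.18 (0.17 to 0.19), which is 0.46 above the median of all genes. It held 0.13 to 0.44 over the alternatives tried. Thinned WT cells had a median of 14 Ctsd UMIs (quartiles 11 and 18) and IRF8KO cells 16 (quartiles 11 and 22). Most cells overlapped: among IRF8KO cells, 15.2% exceeded the WT 95th percentile of 25 UMIs and 4.26% fell short of the 5th, 6 UMIs. Ctsd (chr7:142375911-142388038, - strand) overlaps a predicted gene of the same strand that had no UMI in either library.

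Ctss, Ctsl and Ctsz were lower by less than 2-fold. Ctss, an endopeptidase that processes the MHC class II invariant chain and keeps its activity at neutral pH, stood at 5408 CPM in WT and 2944 in IRF8KO cells, a log2 ratio of -0.88 (-0.89 to -0.86). Its thinned median went from 11 UMIs (quartiles 8 and 14) to 6 (quartiles 4 and 8), and 34.3% of IRF8KO cells had fewer than 5 UMIs, the WT 5th percentile. Ctsl, a broad endopeptidase, stood at 1145 and 671 CPM, a log2 ratio of -0.77 (-0.80 to -0.74). Ctsz, a carboxypeptidase, stood at 1431 and 891 CPM, a log2 ratio of -0.68 (-0.71 to -0.66). Under TMM scaling these 3 stood at -0.62, -0.52 and -0.43.

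Ctsb and Ctsc lay close to the median of all genes. Ctsb, an endopeptidase and carboxydipeptidase, stood at 1674 CPM in WT and 1322 in IRF8KO cells, a log2 ratio of -0.34 (-0.36 to -0.32). Ctsc, the dipeptidyl peptidase that activates serine proteases of granules, stood at 579 and 471 CPM, a log2 ratio of -0.30 (-0.34 to -0.26). Relative to the median of all genes, these were differences of -0.06 for Ctsb and -0.02 for Ctsc. Ctsb, Ctsc, Ctsl and Ctsz each overlap an antisense gene that had 27 to 420 UMIs in WT, few beside their own.

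Cst3 (chr2:148871722-148875692, - strand) set the level of the inhibitors. It was the gene with most UMIs in the WT library and the third in the other, with 899800 UMIs in WT and 372994 in IRF8KO cells. These are 48525 CPM (48425 to 48625) and 19652 CPM, a log2 ratio of -1.30 (-1.31 to -1.30), at the 5.75 percentile of all genes. Every thinned cell of both libraries had a Cst3 UMI, but the amounts differed: the median was 99 UMIs (quartiles 80 and 122) in WT and 36 (quartiles 25 and 54) in IRF8KO cells, and 79.2% of IRF8KO cells (interval 78.0 to 80.4) had fewer than 59, the WT 5th percentile. Cells over the neutrophil limit had 2259 CPM and a median of 1 thinned UMI.

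Cst7 (chr2:150570415-150578944, + strand) was higher in IRF8KO cells, from a low WT level. It had 139 UMIs in WT and 2356 in IRF8KO cells, or 7.50 CPM (6.30 to 8.85) and 124 CPM, a log2 ratio of 4.05 (3.80 to 4.31), 16.6-fold higher. A Cst7 UMI was present in 1.19% of thinned WT cells and 19.4% of thinned IRF8KO cells (3.27% and 29.0% without thinning), and in 0 of 97 cells over the neutrophil limit, which allows a share of up to 3.09% by the floor of 3 counts; without thinning, 6.12% of these deeper cells had one. No cell had more than 3 Cst7 UMIs in WT or 10 in the library labelled IRF8KO.

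Cstb differed little. From 77.1 CPM (WT) and 94.7 CPM (IRF8KO) it gave a log2 ratio of 0.30 (0.20 to 0.40), which is 0.58 above the median of all genes. The ratio held 0.19 to 0.55 over the alternatives tried. A UMI was seen in 13.7% (12.5 to 15.03) of thinned WT cells and 15.9% (14.8 to 17.0) of IRF8KO cells. These intervals overlap, and no difference between the libraries is read from the shares. In cells over the neutrophil limit the share was 10.3% (interval 5.05 to 18.1), too wide to set a level of stray RNA. Those 97 cells may hold Cstb of their own (31.6% without thinning). In thinned cells of one cluster of each library, described further on, the share was higher, at 44.2% (34.0 to 54.8) of WT cluster 4 and 33.9% (22.3 to 47.01) of IRF8KO cluster 5. Over all kept cells of each library without thinning, the shares were 27.8% in WT and 24.5% in IRF8KO cells, the reverse of the thinned order of the libraries.

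**Figure D2:**
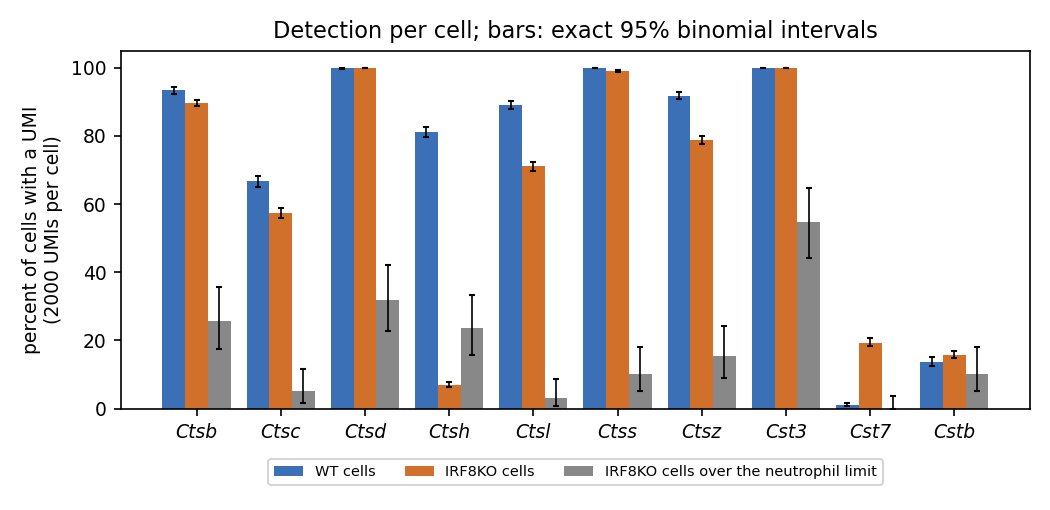
Percent of cells with at least 1 UMI of each gene (y axis) after thinning to 2000 UMIs, in 3019 WT cells, 4509 IRF8KO cells and 97 IRF8KO cells over the neutrophil limit, with exact 95% binomial intervals. Ctsh stands at 81.2% and 6.96% in the libraries and Cst7 stands at 1.19% and 19.4%, while Cst3 is seen in every WT and IRF8KO cell.

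The balance between the sides was taken as the share of Cst3, Cst7 and Cstb in the UMIs of all 10 genes, which no scaling of the libraries can alter. Inhibitors made up 72.3% of these UMIs in WT and 57.3% in IRF8KO cells, or 0.383 and 0.747 protease UMIs per inhibitor UMI. Against cysteine cathepsins alone, the proteases that cystatins can inhibit, the figures were 0.229 and 0.319. Almost all of the inhibitor side was Cst3, 99.8% of it in WT and 98.9% in IRF8KO cells, so the balance is in effect Cst3 against cathepsins. With Cst3 left out, Cst7 and Cstb made up 0.452% and 1.45% of the remaining UMIs. Within the proteases, the part of Ctsd went from 40.2% to 57.3%, that of Ctss from 29.0% to 19.8% and that of Ctsh from 4.82% to 0.265%.

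**Figure D3:**
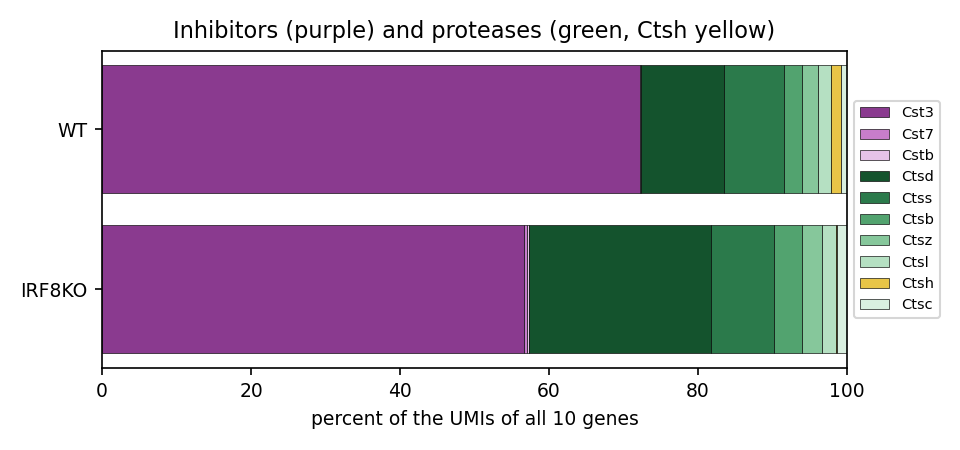
Make-up of the UMIs of the 10 genes in each library (x axis, percent; bars sum to 100), summed over cells, with inhibitors in purple, proteases in green and Ctsh in yellow. The Cst3 part is 72.2% (WT) and 56.6% (IRF8KO), and the Ctsd part is 11.1% and 24.5%.

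Cell by cell at equal depth, the balance shifted in most IRF8KO cells and also spread out. The median inhibitor share was 73.3% in thinned WT cells (quartiles 68.7 and 77.5) and 56.7% in IRF8KO cells (quartiles 48.4 and 64.7). Of 4509 IRF8KO cells, 62.2% (interval 60.7 to 63.6) had a share under the WT 5th percentile of 61.0% and 0.421% one over the WT 95th, 83.2%. Inhibitor UMIs outnumbered protease UMIs in 99.6% of WT cells and 69.2% of IRF8KO cells. Per cell, protease UMIs went from a median of 36 to 29 of 2000, and inhibitor UMIs from 99 to 36. The standard deviation over cells was 6.86 percentage points in WT and 11.7 in IRF8KO cells, where counting error alone would give 3.90 and 6.28. Without Ctsd, which cystatins do not inhibit, the median share was 82.1% in WT and 75.5% in IRF8KO cells, with 38.1% of the latter under the WT 5th percentile.

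**Figure D4:**
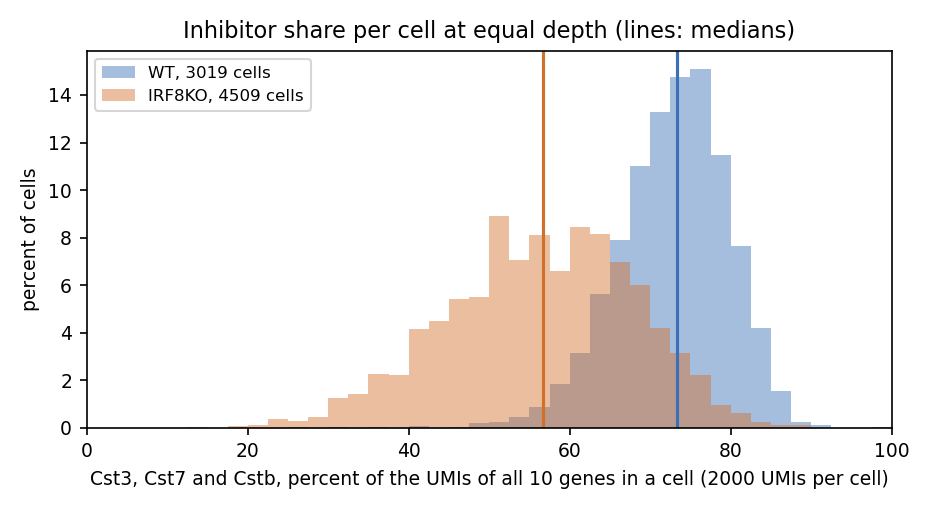
Distribution over cells (y axis, percent of cells in bins of 2.5 percentage points) of the inhibitor share of the UMIs of the 10 genes (x axis), each cell thinned to 2000 UMIs; vertical lines mark the medians of 73.3% in WT and 56.7% in IRF8KO cells. The IRF8KO distribution is wider and lies mostly to the left of the WT distribution.

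The variance over the mean of thinned UMIs describes how unevenly a gene was spread over cells. It was 9.79 for Cst3 in WT cells and 12.9 in IRF8KO cells, and 2.38 and 4.41 for Ctsd. Too few genes reach the levels of these genes for a comparison at like level. For Ctsh it was 1.14 in WT cells, the median of the 100 genes nearest in level, and 1.21 in IRF8KO cells, at percentile 99 of such genes. Cst7 lay at percentiles 97 and 96 and Cstb at 100 and 96.

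To see how the genes vary within a library, cells of each library were clustered alone, with all cathepsin and cystatin genes left out of the clustering. The WT cells fell into 6 clusters and the IRF8KO cells into 8, numbered by size; none could be given a cell type name from the markers. Cst3 ran from 43811 to 67177 CPM over the WT clusters, with the top value in 76 cells of low depth (median 1281.5 UMIs), and from 13534 to 54144 CPM over the IRF8KO clusters. The 2057 cells of IRF8KO cluster 1, led by Crybb1 and with Clec12a among its 10 leading genes, had 28748 CPM of Cst3 and 10535 CPM of Ctsd. The 1780 cells of cluster 2, led by Fxyd5 and with Cd72 among its leading genes, had 14715 and 7271 CPM. Cst7 showed the reverse order, at 70.9 CPM in cluster 1 and 186 CPM in cluster 2. Their inhibitor shares were 63.0% and 52.1%.

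Ctsh was low in every IRF8KO cluster. It ran from 23.1 CPM in cluster 1 to 102 CPM (77.01 to 132) in the 42 cells of cluster 6, led by H2-Eb1 and other MHC class II genes, while the lowest WT cluster stood at 844 CPM. With Leiden resolution 1.0 the highest IRF8KO cluster was another, led by Cxcl9, at 128 CPM, and the lowest WT cluster stood at 741 CPM. The 37 cells of IRF8KO cluster 7, led by Sall1, had 7496 CPM of Apoe and no Ms4a7 UMI, in contrast to 53800 to 92054 CPM of Apoe in the other 7 clusters. Their Cst3 level of 54144 CPM (52886 to 55425) lay within the range of the WT clusters. Their inhibitor share of 78.3% lay above that range, which ran from 68.4% to 74.99%; over 36 thinned cells the median was 78.0% (quartiles 74.9 and 82.2). Cst7 had 1 UMI there, or 7.70 CPM (0.195 to 42.9). Ctsh had 5 UMIs, or 38.5 CPM (12.5 to 89.9), and 1 of the 36 thinned cells held one. Ctsl stood at 1826 CPM (1601 to 2074) in the same cells, above the 671 CPM of the library as a whole. The other cysteine cathepsins were not at WT levels there. Ctsb (817 CPM, 669 to 988), Ctsc (331 CPM, 240 to 446) and Ctsz (546.99 CPM, 427 to 690) had their lowest IRF8KO values in this cluster. For Ctsb and Ctsc the intervals overlap those of the 11 cells of cluster 8, at 913 CPM (682 to 1197) and 334 CPM (201 to 521). Ctss, at 2527 CPM, lay below the lowest WT cluster at 5090 CPM. Leaving these 37 cells out moved no ratio of the 10 genes across 2-fold.

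Clusters led by early response and chemokine genes in either library shared their leading members. WT cluster 4 (99 cells, led by Ccl4) and IRF8KO cluster 5 (67 cells, led by Egr3, with Ccl4 and Ccl3) had the highest Ctsb of their libraries, at 2771 and 2276 CPM, and the highest Cstb, at 200 and 436 CPM. They also had the highest Cst7, at 30.6 CPM (20.9 to 43.2) in WT and 283 CPM (219 to 361) in the other library. The IRF8KO cluster led by Cxcl9 and other interferon genes (276 cells) stood at 3420 CPM of Ctss, in a narrow range over clusters that began at 2282 CPM. Which cluster was highest in Ctss depended on the resolution: with Leiden resolution 1.0 it was one led by Klra17, at 3959 CPM.

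**Figure D5:**
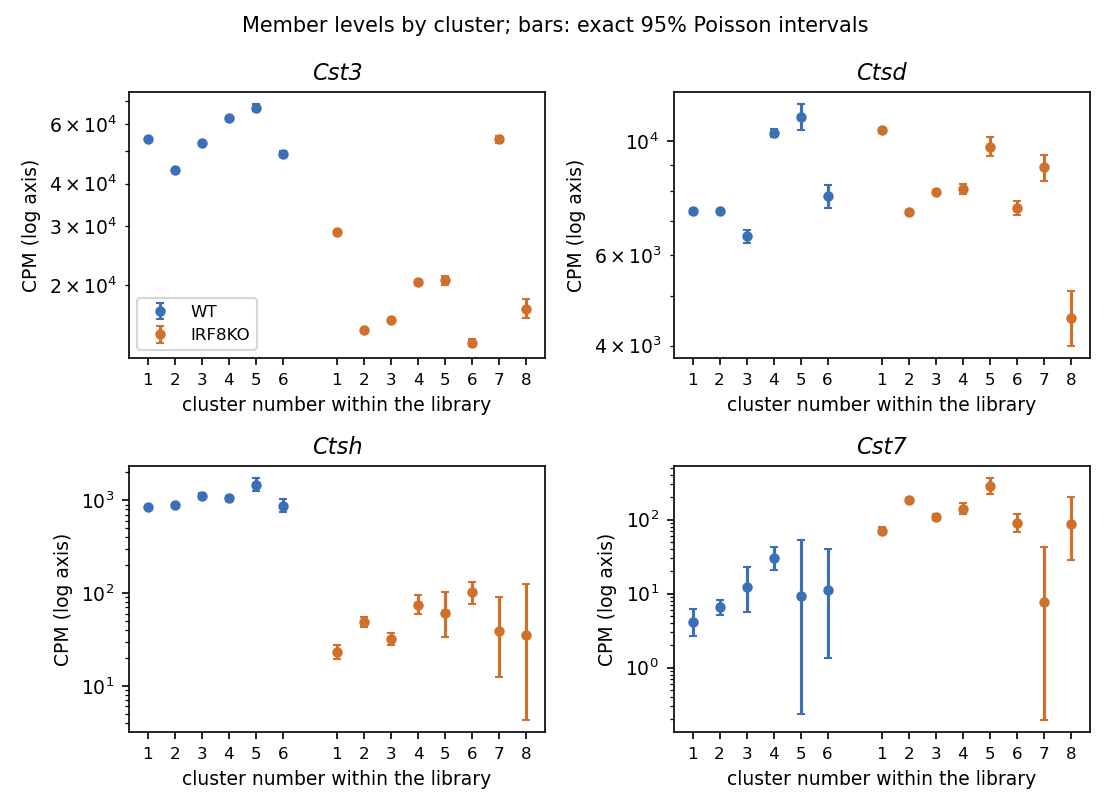
CPM (y axis, log scale) of Cst3, Ctsd, Ctsh and Cst7 in each numbered cluster of WT (blue) and of the library labelled IRF8KO (orange), with exact 95% Poisson intervals. Each IRF8KO cluster lies below every WT cluster for Ctsh (at most 102 against at least 844 CPM), while for Cst3 cluster 7 reaches 54144 CPM.

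Over thinned cells, the genes most like each member were sought by Pearson correlation of log(1 + UMIs) among genes with at least 50 CPM; cells share a library, so these are descriptions. Ctsd and Cst3 varied together in the library labelled IRF8KO, with r = 0.43 over 4509 cells, and less in WT, with r = 0.15 over 3019 cells. In IRF8KO cells the genes near Cst3 included Sparc (r = 0.45) and Ctsd, and the lowest was Fth1 (-0.42). In WT cells the nearest were C1qb (0.43), Ctss (0.34) and Itm2b (0.31). For Ctsd, the nearest gene in WT was Ctsb, at r = 0.23, and in IRF8KO cells Fcrls was among the nearest after Cst3, at 0.30. In IRF8KO cells Ctss was also nearest to Cst3 and C1qb, both at 0.21. No gene reached 0.2 for Cst7, Cstb, Ctsc, Ctsh, Ctsl or Ctsz in either library. The means of these genes were low, from 0.013 (Cst7 in WT) to 2.81 (Ctsz in WT) thinned UMIs per cell, against 103 for Cst3 in WT. Counting error lowers r at such levels, so a lack of genes that vary with them cannot be read from this.

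Lists of other genes of the lysosomal protease system were read in the same way. Of 16 other cathepsin genes listed, 3 reached 10 CPM: Ctsf was called lower, at -1.34, while Ctso and Ctsa stood at -0.36 and -0.27. None of 18 other cystatin and stefin genes in the feature table reached 10 CPM, so Cst3, Cst7 and Cstb were the family members with a usable level. Among 6 other lysosomal peptidases, Lgmn and Dpp7 were called lower and none higher; Lgmn, the asparaginyl endopeptidase that Cst3 also inhibits, went from 3258 to 1495 CPM, a log2 ratio of -1.12. Under TMM scaling neither passed 2-fold. Prcp stood at -0.79.

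Of 13 genes that deliver or regulate lysosomal enzymes, 3 were called lower and 1 higher, with a median of -0.47. The sorting receptor gene Sort1 stood at -1.56, Psap, the saposin precursor, at -1.32, and Tfeb, which drives lysosomal genes, at -1.31; Sorl1 was the higher one, at 1.31. Of 6 serpins and other protease inhibitors, 4 were called lower (Spint1 at -9.60, with an interval of -11.88 to -8.05 on 3 IRF8KO UMIs, Serpinf1 at -3.79, Serpine2 at -3.24 and Timp2 at -1.66) and Serpinb6a higher, at 2.45. Spint1 and Serpinf1 reached 10 CPM only through WT cells and Serpinb6a only through IRF8KO cells, which favours a call. Of 6 antigen-processing genes, Cd74, H2-Aa, H2-Ab1 and H2-Eb1 were called higher, the last at 4.37 and H2-Aa at 4.88, and H2-DMa (-4.17) and H2-DMb1 (-1.28) lower. Among them H2-Aa, H2-Ab1 and H2-Eb1 reached 10 CPM only through IRF8KO cells. The higher calls rested on the 42 cells of IRF8KO cluster 6, 0.839% of the cells, which that clustering grouped by these same genes. They held 84.9% of the H2-Aa UMIs, 89.7% of H2-Eb1, 84.04% of H2-Ab1 and 70.4% of Cd74. Without them, a comparison chosen after seeing the data, Cd74 stood at 0.07 (-0.09 to 0.24) and H2-Ab1 at -0.84 (-1.25 to -0.43). H2-Aa stood at 2.19 and H2-Eb1 at 1.13, both under 10 CPM in either library, and H2-DMa stayed lower, at -4.64. These counts stand beside 9.28% of all genes called lower and 5.61% called higher.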

How the data were processed

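The deposited matrices hold raw UMI counts per gene and cell barcode, made by the authors with Cell Ranger 3.1 on mm10 per the submitters' processing notes (software version 3.1.0 per the file headers). For annotation and cell calling, settings were not stated. The labels' protocols name a full-length kit beside the droplet platform; the matrices look like droplet output. UMIs were summed per library and scaled to CPM. A zero was replaced by 3 counts over the group, and such ratios are bounds. Intervals are exact: Poisson for CPM, conditional binomial for ratios, Clopper-Pearson for shares. Thinning drew 2000 UMIs per cell without replacement and left out 285 WT and 498 IRF8KO cells below that depth. No doublet caller was run; an alternative left out the 5% of cells with most UMIs. Clustering used scanpy 1.11.5 (2000 variable genes, 30 components, 15 neighbours, Leiden resolution 0.5). Alternative scalings came from edgeR 4.0.16 and the size factors of DESeq2 1.42.0; neither tool was used for a test. Ratios were checked on simulated counts, and thinning on real counts of WT cells. Positions come from GENCODE M21. Reported genes are the 10 members, the 3 genes of each other list with the largest ratio among those with at least 10 CPM, and up to 3 most alike genes with r of at least 0.2. Timp2, Tfeb, Cd74, H2-Ab1, H2-DMb1, Serpinb6a and the cluster genes were named after their values were seen. The members and lists were chosen with earlier results of these data known. One gene that this rule names is not reported here.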

Additional observations from a re-analysis of the deposited data

Results flagged for a closer look

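Stfa1, a stefin gene and so a relative of Cstb, appeared in cells outside the comparison. It stood at 13.05 CPM (6.51 to 23.3) in the 98 IRF8KO cells over the neutrophil limit, on 11 UMIs in 2 cells, against no UMI in WT cells and none in the kept IRF8KO cells.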

How the results depend on the processing

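Each library is 1 sample, so no replicate could be left out. No paired analysis was possible because each group holds 1 sample. A value is called moved when it lay outside its own counting interval, which is narrow at this depth. All 10 genes kept their sign, and Ctsh, Cst3 and Cst7 their 2-fold call, under 9 other settings and another 2 chosen after seeing the data (without the IRF8KO cluster led by Sall1, and without that led by H2-Eb1). The summed protease log2 ratio was -0.074 with TMM scaling, -0.10 with median-of-ratios scaling, -0.18 without mitochondrial and ribosomal protein genes, -0.19 without Apoe, -0.31 with equal weight for each cell, -0.31 with a stricter cell filter, -0.38 with no neutrophil limit, -0.31 without the 5% of cells with most UMIs and -0.81 without Ctsd. In the same order the summed inhibitor log2 ratio was -1.04, -1.06, -1.14, -1.16, -1.26, -1.28, -1.35 and -1.27; it was 1.37 without Cst3, since Cst7 and Cstb alone then remain, -1.31 without the cluster led by Sall1 and -1.28 without that led by H2-Eb1. With no minimum CPM, 30.3% of genes passed 2-fold. With no minimum CPM, TMM scaling and totals without mitochondrial and ribosomal protein genes, in that order, list medians were -0.53, -0.10 and -0.21 for other cathepsins, -0.33, -0.31 and -0.41 for lysosomal peptidases, and 0.034, -1.40 and -0.66 for serpins and other inhibitors, whose sign thus turned when more genes entered. Under the last 2 settings the delivery and regulator list stood at -0.21 and -0.32, and under TMM the antigen-processing list at 2.03. Without the cluster led by H2-Eb1 that list turned to -1.34, with 3 genes at 10 CPM. The median inhibitor share in WT was 72.9% with no thinning, 73.7% without the 5% of cells with most UMIs, 82.1% without Ctsd and 0 without Cst3. In IRF8KO cells it was 57.6% at 1000 UMIs, 57.4% with the stricter filter, 57.4% without the 5% of cells with most UMIs, 75.5% without Ctsd and 0 without Cst3. The percent of IRF8KO cells under the WT range was 72.3 with the 10th percentile as its edge, 52.6 at 1000 UMIs, 64.6 with no thinning, 64.2 with another random seed, 38.1 without Ctsd and 0 without Cst3. The percent over it was 0.909 with the 90th percentile, 0.759 at 1000 UMIs, 0.784 with no neutrophil limit, 4.72 without Ctsd and 21.6 without Cst3. At Leiden resolution 1.0 the highest inhibitor share of a WT cluster was 76.1%. Where no reason is given, the cause was not tested.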

Other observations

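Some listed cathepsin and serpin genes below 10 CPM also differed between the libraries. Those named first are all higher in IRF8KO cells, and they were picked after their values were seen. Ctse, an aspartic protease like Ctsd, had 1 UMI in WT and 41 in IRF8KO cells, a log2 ratio of 5.32 (2.77 to 10.66). Serpinh1, a collagen chaperone, had none in WT and 163 in IRF8KO cells, at least 53.1-fold higher when WT is set to 3 counts over the group. Serpinb8 had none and 97, at least 31.6-fold higher, and Serpinb6b had 12 and 187, a log2 ratio of 3.93 (3.09 to 4.91). Other listed genes below 10 CPM were lower, with examples picked in the same way. Kng2, of the cystatin list, had 13 UMIs in WT and 2 in IRF8KO cells, a log2 ratio of -2.73 (-5.92 to -0.59). H2-DMb2, of the antigen-processing list, had 138 and 36, a log2 ratio of -1.97 (-2.54 to -1.43). With no minimum CPM, 13.2% of all genes were 2-fold or more higher and 17.1% lower.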
